A study of Gallus gallus with 106 samples.

Results

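HEY1 and NOTCH1 are the target and the receptor of Notch signalling on a targeted RNA-seq panel of chicken muscle cells. They were chosen by name, as the rows of the deposited count table that carry these gene symbols, and are 2 of the 569 genes on the panel. Each symbol had 1 transcript row. HEY1 (ENSGALT00000083298) lies on chromosome 2 at 120664931 to 120667575 of galGal6, on the minus strand, with 5 exons and a spliced length of 891 bases. NOTCH1 (ENSGALT00000092788) lies on chromosome 17 at 8107664 to 8141455, on the plus strand, with 34 exons and a spliced length of 7845 bases. Both genes passed the filter on low counts that left 453 genes for testing.

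Notch receptors sit in the cell membrane and are cut when they bind a ligand on a neighbouring cell. The freed intracellular domain enters the nucleus, joins the DNA-binding protein RBPJ and switches on target genes, among them the HES and HEY families of transcriptional repressors. In mouse muscle, Notch signalling is known for keeping satellite cells, the stem cells of the fibre, from differentiating, and HEY1 is among the targets known for holding back myogenic genes. The abundance of the NOTCH1 transcript is not a measure of how much receptor is cut, so the pair gives the receptor's message and a target's message, and not the signal itself.

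The cells were wild-type primary satellite cells from broiler Pectoralis major, the breast muscle, expanded in serum-rich medium and then moved to a medium with less serum that starts myogenic differentiation. The 0 h samples (n = 5, 20% O2) were taken just before that change. Cells differentiating at 20% O2, called normoxia, and cells placed in a chamber with 1% O2, called hypoxia, were taken at 12, 24, 36 and 48 h (n = 6 in each of these 8 groups). All groups share the same cell source, and the 8 later groups share the same media. The 0 h samples had not met the medium with less serum. In comparisons with 0 h, time and the change of medium therefore cannot be told apart. The hypoxia course has no 0 h samples of its own, and both courses start from the normoxia 0 h libraries. The labels do not say how many birds the cells came from, so p-values reflect only how far these samples differ from each other, and that may be technical. The cultures are bulk samples, in which fewer cells of a type and less RNA per cell cannot be told apart.

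Each of the 53 libraries was the sum of 2 technical replicates and held between 171196 and 1448544 counts, with a median of 759253. HEY1 had 39 to 3308 counts per library (median 362) and NOTCH1 had 13 to 1205 (median 228). Levels are given as CPM, counts scaled to a common library size by TMM factors, and CPM of different genes reflect the yield of their primers and are not compared. The defining muscle genes were present in every library, with medians of 8285 CPM for PAX7, 4166 for MYOD1 and 4839 for MYOG. Several markers listed for other cell types were also present in every library. Medians were 4991 CPM for PDGFRA and 4881 for COL3A1 (fibroblast), 6221 for FABP4 and 4999 for LPL (adipocyte), and 4109 for ACTA2 and 4781 for TAGLN (smooth muscle). Others of these lists had few counts, with 0 to 14 per library for COL1A2 and 1 to 55 for PLIN1. The share of each cell type in the cultures was not tested. Of the endothelial markers, PECAM1 had 0 to 5 counts per library, CDH5 1 to 40, EDN1 5 to 296, ENG 7 to 389 and VWF 7 to 966, and the immune marker PTPRC was at 0 in 25 of 53 libraries. Between technical replicates of the same library the standard deviation of log2 CPM was 0.350 for HEY1 and 0.606 for NOTCH1, against a median of 0.227 over the tested genes. NOTCH1 differed by more than 1 on the log2 scale between the technical replicates in 15 of 53 libraries, and HEY1 in 3.

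A split of the libraries touches several results. In the mean log2 CPM of 6 genes (MC5R, SSTR2, HRH2, THRSP, FBP2 and IRS1) there was a gap between 7.03 and 7.67, with 17 of 53 libraries above it. In normoxia these were 1 library at 0 h, 4 at 12 h, 1 at 24 h, 1 at 36 h and 5 at 48 h, and in hypoxia 1 at 12, 24 and 36 h each and 2 at 48 h. Values without these libraries are given beside the results whose calls they end. Leaving them out keeps 1 normoxia library at 48 h and 2 at 12 h, and a lone library is then assumed to vary like the other groups.

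HEY1, which encodes a basic helix-loop-helix repressor, fell steeply as the cells differentiated in normoxia. At 0 h its 5 libraries stood at 2743, 3019, 2633, 2593 and 2661 CPM. At 12 h the lowest, median and highest of 6 libraries were 854, 1056 and 1466 CPM, at 24 h 267, 443 and 649 CPM, at 36 h 232, 294 and 491 CPM, and at 48 h 293, 314 and 408 CPM. No library at a later harvest reached the lowest 0 h library, and the 0 h libraries were the closest together of all groups relative to their level.

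The means were 2730 ± 171 CPM at 0 h (SD, n = 5), 1088 ± 221 at 12 h, 465 ± 151 at 24 h, 323 ± 94.3 at 36 h and 337 ± 52.8 at 48 h (n = 6 each). From 0 to 48 h HEY1 fell 8.13-fold (log2 -3.02, SE 0.22, edgeR quasi-likelihood test, adjusted p = 1.52e-16), with 6 of 6 libraries below the 0 h mean. In that comparison 40.6% of the 453 tested genes were called at an adjusted p under 0.05. The log2 change was -1.33 between 0 and 12 h (SE 0.21, edgeR adjusted p = 2.15e-06) and -1.23 between 12 and 24 h (SE 0.21, adjusted p = 1.57e-05), where 18.1% and 38.6% of genes were called. The groups did not overlap at either step.

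The later steps did not pass the edgeR test. From 24 to 36 h the log2 change of HEY1 was -0.51 (95% interval -0.93 to -0.10, adjusted p = 0.170), and from 36 to 48 h it was 0.05 (interval -0.37 to 0.46, adjusted p = 0.972). Calls were few at these steps, with 5.74% and 1.10% of genes. The drop of HEY1 in normoxia therefore lay between 0 and 24 h as far as single steps passed the test.

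**Figure D1:**
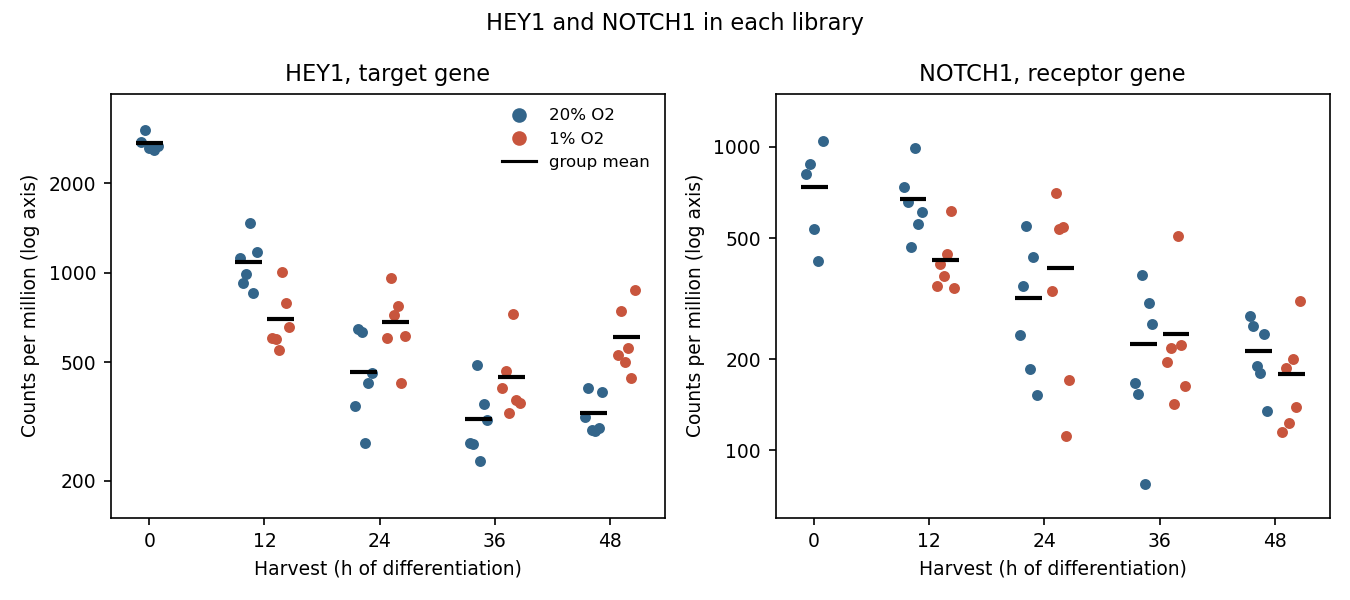
CPM (log axis) of HEY1 and NOTCH1 in each library against the harvest in h. Points are libraries at 20% O2 (blue) and 1% O2 (red), and black bars are group means. The 0 h libraries of HEY1, at 2593 to 3019 CPM, lie above all later ones, while those of NOTCH1, at 421 to 1049 CPM, overlap with the 12 h libraries.

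NOTCH1, the receptor, also fell, with more spread between libraries. At 0 h its libraries stood at 813, 877, 535, 421 and 1049 CPM, a range that takes in 6 of 6 normoxia libraries at 12 h, whose lowest, median and highest were 469, 635 and 992 CPM. At 24 h these values were 152, 294 and 551 CPM, at 36 h 77.5, 214 and 379 CPM, and at 48 h 134, 215 and 278 CPM. Every 48 h library was below the lowest 0 h library.

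The means of NOTCH1 were 739 ± 257 CPM at 0 h (SD, n = 5), 672 ± 182 at 12 h, 319 ± 155 at 24 h, 224 ± 111 at 36 h and 213 ± 54.2 at 48 h (n = 6 each). From 0 to 48 h in normoxia the receptor fell 3.45-fold (log2 -1.79, SE 0.37, edgeR adjusted p = 7.70e-05). When the 17 libraries above the gap were left out, the log2 change was -2.37 (adjusted p = 0.0690). The step from 0 to 12 h was -0.14 on the log2 scale (interval -0.87 to 0.59, edgeR adjusted p = 0.806). NOTCH1 fell between 12 and 24 h by 1.06 on the log2 scale (SE 0.35, adjusted p = 0.0187), a call that was lost without replicate 1, 4 or 6 (adjusted p up to 0.0897) and without the libraries above the gap (log2 -1.12, adjusted p = 0.128). The next steps were -0.50 and -0.09 (edgeR adjusted p = 0.577 and 0.972).

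In hypoxia HEY1 was already low at 12 h, and its group means then lay between 447 and 700 CPM. The lowest, median and highest of 6 libraries were 550, 629 and 1009 CPM at 12 h, 427, 666 and 959 CPM at 24 h, 338, 391 and 727 CPM at 36 h, and 443, 544 and 872 CPM at 48 h. The ranges of neighbouring harvests overlapped throughout, and none reached the 0 h libraries. In order of harvest the means were 700 ± 172, 683 ± 181, 447 ± 145 and 607 ± 165 CPM (SD, n = 6 each).

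Set against the shared 0 h libraries, HEY1 fell by 1.97 on the log2 scale by 12 h of hypoxia (SE 0.22, edgeR adjusted p = 1.73e-10; 27.2% of genes called) and by 2.17 by 48 h (SE 0.22, adjusted p = 5.12e-12, 4.51-fold; 44.2% called). From 12 to 24 h the change was -0.04 (interval -0.45 to 0.38, edgeR adjusted p = 0.960; 10.2% of genes called). HEY1 fell by 0.62 from 24 to 36 h (SE 0.21, adjusted p = 0.0477; 9.05% called). That call lay at the threshold: it was lost without replicate 1, 2, 3 or 6 (adjusted p up to 0.232) and when the libraries above the gap were left out (adjusted p = 0.113). From 36 to 48 h the change was 0.44 (interval 0.03 to 0.86, edgeR adjusted p = 0.252; 3.97% called), and it passed without the libraries numbered 4 (0.65, adjusted p = 0.0279).

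NOTCH1 in hypoxia had a lower mean at each later harvest. Its lowest, median and highest libraries were 343, 395 and 614 CPM at 12 h, 111, 436 and 705 CPM at 24 h, 142, 206 and 507 CPM at 36 h, and 115, 163 and 311 CPM at 48 h. At 24 h the libraries fell apart into 4 at 335 to 705 CPM and 2 at 111 and 170 CPM. The means were 423 ± 101, 401 ± 234, 241 ± 134 and 179 ± 72.9 CPM (SD, n = 6 each).

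Against 0 h, NOTCH1 fell 4.16-fold by 48 h of hypoxia (log2 -2.06, SE 0.37, edgeR adjusted p = 8.30e-06), and no library overlapped with those at 0 h. By 12 h of hypoxia the log2 change was -0.80 (interval -1.53 to -0.07, adjusted p = 0.0981), and it passed without the libraries numbered 4 (-0.96, adjusted p = 0.0451). Single steps between 12 and 48 h of hypoxia were -0.08, -0.75 and -0.43 on the log2 scale and none passed (edgeR adjusted p = 0.949, 0.203 and 0.588). Tested over all harvests at once, both genes changed in each oxygen level: for HEY1 the edgeR adjusted p was 1.21e-19 in normoxia and 6.20e-16 in hypoxia, and for NOTCH1 7.36e-06 and 3.99e-05. In these tests 59.8% of genes were called in normoxia and 51.0% in hypoxia.

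Oxygen was compared at each harvest to ask how hypoxia changes the cells during differentiation. HEY1 was lower in hypoxia at 12 h and higher at 48 h. At 12 h the hypoxia mean of 700 CPM stood against 1088 in normoxia (log2 -0.64, SE 0.20, edgeR adjusted p = 0.0255; 17.9% of genes called), with 6 of 6 hypoxia libraries below the normoxia mean and the ranges overlapping between 854 and 1009 CPM. The 12 h call was lost without the libraries numbered 1, 2, 3 or 6 (adjusted p up to 0.104). At 48 h the hypoxia mean of 607 CPM was 1.80-fold that of 337 in normoxia (log2 0.85, SE 0.21, edgeR adjusted p = 0.00124; 22.3% called), and the lowest hypoxia library, at 443 CPM, was above the highest normoxia library, at 408 CPM.

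Between these harvests HEY1 was higher in hypoxia by values that did not pass the test. At 24 h the log2 difference was 0.56 (interval 0.14 to 0.97, edgeR adjusted p = 0.0512; 18.5% of genes called), with 5 of 6 hypoxia libraries above the normoxia mean. At 36 h it was 0.45 (interval 0.04 to 0.87, adjusted p = 0.140; 16.3% called), with 6 of 6 above. Without the libraries numbered 3 both differences passed (0.65 and 0.68, edgeR adjusted p = 0.0445 and 0.0361). DESeq2 called the 24 h difference (log2 0.57, adjusted p = 0.0246).

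The oxygen difference of HEY1 itself changed with time. The difference at 48 h exceeded that at 12 h by 1.49 on the log2 scale (SE 0.29, edgeR adjusted p = 0.000359; 9.27% of genes called), and the test for any difference among the 4 harvests gave an adjusted p of 0.000860 (10.6% called). Without the 17 libraries above the gap, HEY1 differed by -0.70 at 12 h (edgeR adjusted p = 0.209) and by 0.44 at 48 h (adjusted p = 0.740), and the change of the difference was 1.14 (adjusted p = 0.566). The directions held and no call was left. In that smaller set 24 genes were called at 12 h and 22 at 48 h, against 81 and 101 with all libraries.

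For NOTCH1 no oxygen comparison passed in the fit over all groups. The log2 differences were -0.67 at 12 h (interval -1.37 to 0.04), 0.32 at 24 h (-0.38 to 1.03), 0.07 at 36 h (-0.64 to 0.78) and -0.27 at 48 h (-0.99 to 0.44), with edgeR adjusted p-values of 0.161, 0.646, 0.959 and 0.694. At 12 h 6 of 6 hypoxia libraries were below the normoxia mean of 672 CPM, although the ranges overlapped. The test for any difference among harvests gave an adjusted p of 0.452. With only the 12 h groups in the fit the 12 h difference passed (log2 -0.67, edgeR adjusted p = 0.0240). The value at 36 h turned to -0.43 without the libraries numbered 4. At 12 h the interval of NOTCH1 takes in the value of -0.64 found for HEY1. At 48 h it ends at 0.44, and that of HEY1 (log2 0.85) runs from 0.43 to 1.27, so the intervals overlap. Without the libraries above the gap the 48 h values were 0.21 for NOTCH1 and 0.44 for HEY1. Whether the genes differ in their oxygen difference was not tested.

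**Figure D2:**
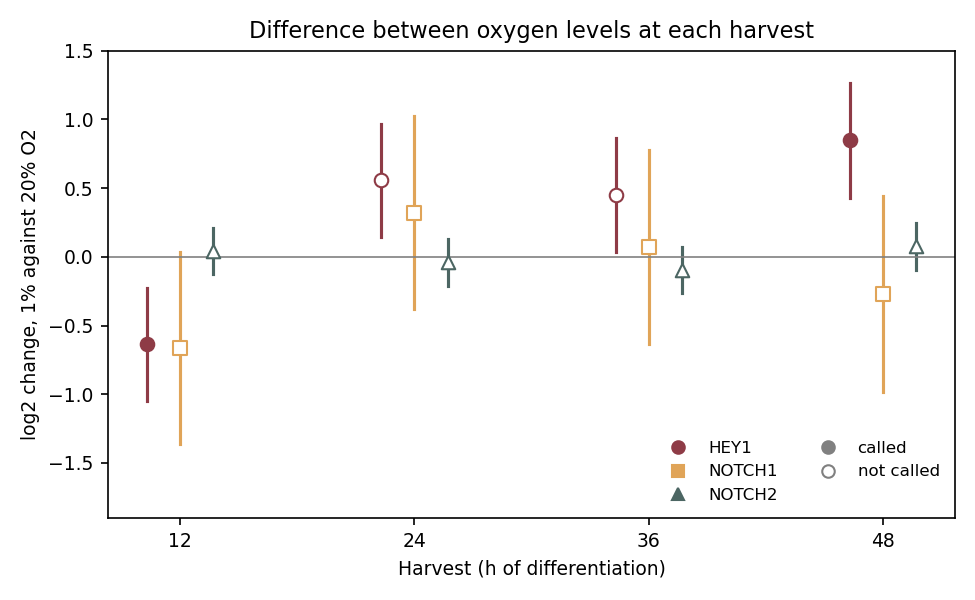
Log2 difference between 1% and 20% O2 at each harvest (h) for HEY1, NOTCH1 and NOTCH2, with 95% intervals from the edgeR fit. Filled symbols passed an adjusted p of 0.05 and open symbols did not. HEY1 goes from -0.64 at 12 h to 0.85 at 48 h, while every interval of NOTCH1 and NOTCH2 takes in 0.

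The order of the group means shows the same picture across the 9 groups. For HEY1 it ran from normoxia 0 h through normoxia 12 h, hypoxia 12, 24 and 48 h, normoxia 24 h, hypoxia 36 h and normoxia 48 h to normoxia 36 h. Only the first neighbours in that order, normoxia 0 h and 12 h, had ranges that did not overlap, and from hypoxia 12 h down each gap between neighbouring means was smaller than the larger of their SDs. For NOTCH1 the order was normoxia 0 h, normoxia 12 h, hypoxia 12 h, hypoxia 24 h, normoxia 24 h, hypoxia 36 h, normoxia 36 h, normoxia 48 h and hypoxia 48 h, and all neighbours overlapped. Hypoxia at 48 h was thus the fifth of 9 groups for HEY1 and the lowest for NOTCH1.

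That contrast was followed with the ratio of the HEY1 count to the NOTCH1 count within each library, a measure added after the values were seen. Its level depends on the primers of both genes, which all libraries share. Differences between libraries are not free of technical variation. Between technical replicates NOTCH1 varied more than HEY1 (SD of log2 CPM 0.606 against 0.350). The log2 ratio at 0 h was 1.75, 1.78, 2.30, 2.62 and 1.34 in the 5 libraries. In normoxia the lowest, median and highest were 0.48, 0.61 and 1.08 at 12 h, -0.03, 0.55 and 1.60 at 24 h, 0.24, 0.52 and 1.58 at 36 h, and 0.24, 0.65 and 1.57 at 48 h. In hypoxia they were 0.36, 0.67 and 1.19 at 12 h, 0.42, 0.68 and 1.94 at 24 h, 0.52, 1.09 and 1.25 at 36 h, and 1.48, 1.83 and 2.20 at 48 h. The hypoxia 48 h libraries thus lay in the range of the 0 h libraries and above 5 of 6 normoxia 48 h libraries.

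Since the ratio was chosen on these values, it is given as a description with no test. Its mean was 1.96 ± 0.50 at 0 h (SD, n = 5) and 0.71 ± 0.24 at 12 h of normoxia (n = 6), with no overlap of the libraries, a difference of -1.25. At 48 h it was 0.69 ± 0.47 in normoxia and 1.81 ± 0.30 in hypoxia (n = 6 each), a difference of 1.12 between oxygen levels. At 12, 24 and 36 h the oxygen differences were 0.01, 0.38 and 0.32. Against 0 h the mean ratio differed by -1.27 at 48 h of normoxia and by -0.15 at 48 h of hypoxia, and the libraries overlapped in both cases.

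In normoxia at 48 h the ratio differed between the sides of the gap, with 1 library below it. The normoxia 48 h library below the gap, replicate 6, had a log2 ratio of 1.57, and the 5 above it had 0.24 to 0.71. In hypoxia at 48 h the 2 libraries above the gap had 1.49 and 2.20 and the 4 below it had 1.48 to 2.02. Without the libraries above the gap the difference between oxygen levels at 48 h was 0.22 and that of normoxia 48 h from 0 h was -0.45. The dependence on the split was not tested, since 1 normoxia library remained at 48 h. At 24 h of normoxia the order was the other way, with 1.60 in the library above the gap and -0.03 to 0.90 below it. At 12 h of normoxia the sides overlapped (0.48 to 1.08 above and 0.56 to 0.61 below).

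**Figure D3:**
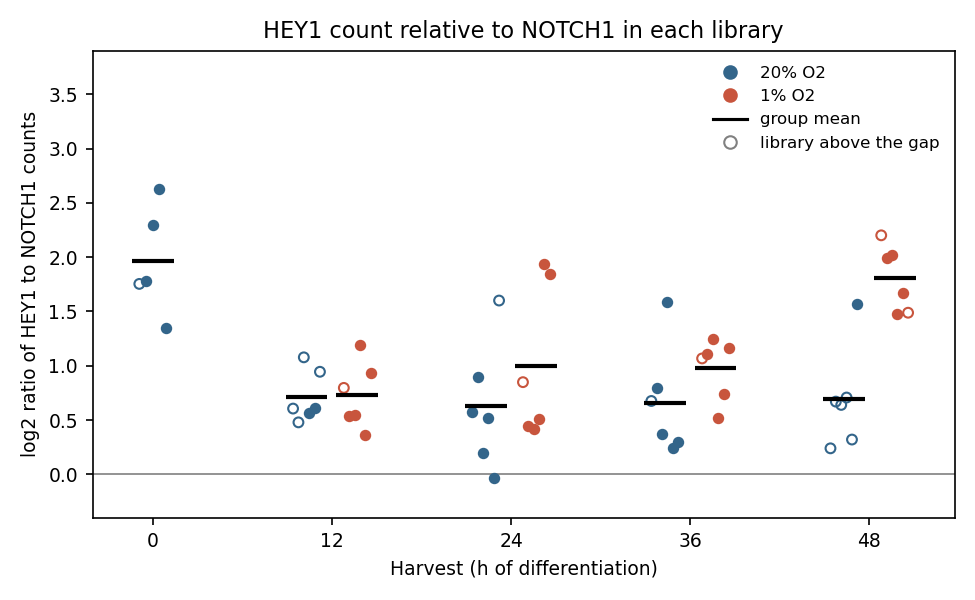
Log2 ratio of the HEY1 to the NOTCH1 count in each library against the harvest in h, at 20% O2 (blue) and 1% O2 (red). Open points are the 17 libraries on the upper side of the gap and black bars are group means. The 48 h hypoxia libraries, at 1.48 to 2.20, lie above 5 of 6 normoxia libraries, and the sixth, at 1.57, is the only one there below the gap.

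HEY1 and NOTCH1 rose and fell together among libraries of the same group. After the group means of log2 CPM were removed, Pearson's r over 53 libraries was 0.73 and Spearman's rho 0.71 (permutation within groups, p = 1e-05 for each, the smallest that 100000 resamples give, and 1e-05 after adjustment over 2 relations). Without the 2 libraries farthest from the median of NOTCH1, r was 0.69. The pair was not apart from other pairs, since 62 genes (13.7% of those tested) had a higher r with HEY1 and 61 (13.5%) a higher r with NOTCH1. The differences between technical replicates of the same library, which share their cells and RNA, were correlated too, with r = 0.83 and rho = 0.76 (permutation p = 1e-05 for each). There 15 genes were closer to HEY1 and 26 closer to NOTCH1.

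The shared variation between technical replicates was summarised by its first component over the other 451 tested genes, which held 30.5% of the variance of the replicate differences. HEY1 and NOTCH1 followed it, with r = 0.86 and 0.90 between their replicate differences and those of the component. The score of this component in the libraries had a mean of 1.18 in normoxia and -0.20 in hypoxia at 12 h, and of -0.11 and -0.20 at 48 h. It was computed with group differences left in, so it may also hold effects of time and oxygen. In a fit with the score these cannot be told apart from technical variation. With the score as a covariate, a fit added after the values were seen, the oxygen difference of HEY1 at 12 h was -0.18 (edgeR adjusted p = 0.392) and that of NOTCH1 0.12 (adjusted p = 0.847). The difference of HEY1 at 48 h was 0.85 (adjusted p = 1.64e-08), and those at 24 and 36 h were 0.35 and 0.43 (adjusted p = 0.0162 and 0.00252). The fall of NOTCH1 between 12 and 24 h of normoxia was then 0.26 on the log2 scale, and the call was lost (adjusted p = 0.429). Its change from 0 to 12 h was then -0.45 (adjusted p = 0.125), so that the larger of these steps was the other one, and no test compared the timing of the pair. The falls of both genes from 0 to 48 h were called in either oxygen level.

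**Figure D4:**
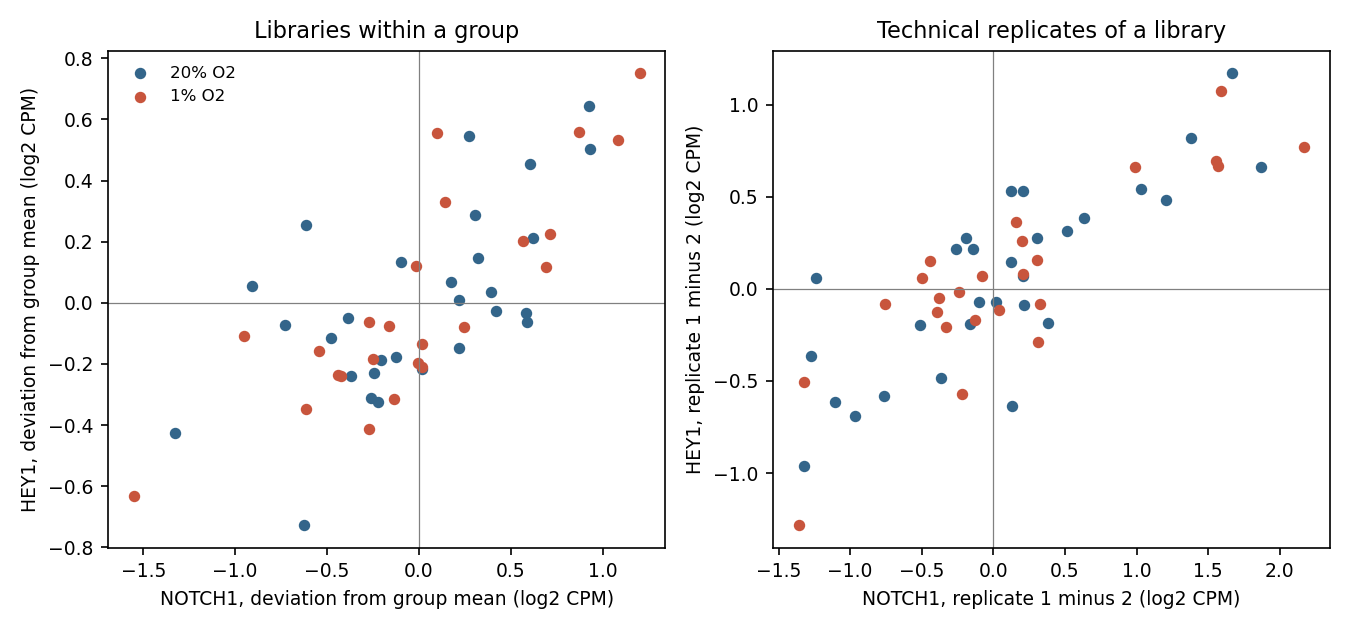
HEY1 against NOTCH1 in log2 CPM, as deviations of each library from its group mean (left) and as technical replicate 1 minus 2 of each library (right), for libraries at 20% O2 (blue) and 1% O2 (red). Both clouds rise from lower left to upper right, with Pearson's r of 0.73 and 0.83 over 53 libraries.

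The rest of the Notch pathway was thinly covered. Of 56 genes listed as Notch ligands, receptors, processing enzymes, nuclear partners, regulators and targets, 5 were on the panel and tested. They were 1 of 8 ligands, 2 of 4 receptors, 0 of 14 processing genes, 1 of 9 nuclear partners, 0 of 8 regulators and 1 of 13 targets. In normoxia from 0 to 48 h HEY1 and NOTCH1 fell and the other 3 did not pass, so that 2 of 5 genes were called, next to 40.6% of all genes tested. The list had a median log2 change of -0.16 against 0.01 over all tested genes. The oxygen comparisons called HEY1 at 12 and 48 h with edgeR and at 12, 24 and 48 h with DESeq2. In the fits over all groups neither tool called any of the other 4 genes at any harvest.

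NOTCH2, the other receptor measured, differed little between groups. Its group means ran from 3658 ± 421 CPM in hypoxia at 36 h to 4571 ± 308 at 0 h (SD, n = 6 and 5). From 0 to 48 h its log2 change was -0.16 in normoxia (interval -0.34 to 0.01, edgeR adjusted p = 0.141) and -0.09 in hypoxia (interval -0.26 to 0.09, adjusted p = 0.457), and 0.03 in normoxia without the libraries above the gap. Its 4 oxygen differences lay between -0.10 and 0.08. Over all harvests of hypoxia the test passed (edgeR adjusted p = 0.0199), a call lost without replicate 2 or 3 (adjusted p up to 0.132) and without the libraries above the gap (0.106). That call was also lost with only the groups compared, library totals, technical replicate 1 alone or scaling by reference genes (edgeR adjusted p from 0.0573 to 0.356). Over the harvests of normoxia NOTCH2 did not pass (adjusted p = 0.182).

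DLK1, a Delta-like transmembrane protein that lacks the part by which classical ligands bind Notch, had few counts and a wide spread. Its group means ran from 37.4 ± 21.5 CPM in normoxia at 36 h to 93.6 ± 45.1 in normoxia at 48 h (SD, n = 6 each). The test over all harvests passed in normoxia (edgeR adjusted p = 0.0417) and not in hypoxia (adjusted p = 0.970), and the normoxia call was lost without replicate 2, 3 or 4 (adjusted p up to 0.200) and without the libraries above the gap (0.319), as well as with technical replicate 2 alone (0.271) or the covariate (0.0955). The log2 change from 0 to 48 h was 0.72 in normoxia (edgeR adjusted p = 0.272; -0.28 with the libraries above the gap left out) and 0.07 in hypoxia (adjusted p = 0.931), and the latter lay between -0.09 and -0.06 without the libraries numbered 3, 4 or 6. EP300, an acetyltransferase that the Notch complex recruits and that serves many other factors, had group means between 3834 ± 159 and 4352 ± 479 CPM. Its log2 change from 0 to 48 h was 0.08 in each oxygen level (edgeR adjusted p = 0.458 and 0.413). From 12 to 24 h of normoxia EP300 was called higher, near the threshold (log2 0.18, edgeR adjusted p = 0.0455; 38.6% of genes called).

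The tested genes whose group means followed HEY1 most closely were found by Pearson's r of mean log2 CPM over the 9 groups, as a description with no test. They were EDN1 (r = 0.98), which encodes the vessel-constricting peptide endothelin, VWF (0.97), the von Willebrand factor of endothelial cells, SFRP1 (0.95), a secreted Wnt inhibitor, the unnamed gene ENSGALG00000025996 (0.94) and FGFR4 (0.94), a receptor for fibroblast growth factors. VWF fell from 743 ± 168 CPM at 0 h to 60.7 ± 23.7 at 48 h of normoxia and stood at 130 ± 41.6 in hypoxia (48 h oxygen difference log2 1.11, SE 0.30, edgeR adjusted p = 0.00310). SFRP1, ENSGALG00000025996 and FGFR4 were also called higher in hypoxia at 48 h (log2 0.82, 1.23 and 0.50, edgeR adjusted p = 0.0240, 3.78e-05 and 0.000938), and EDN1 was not (0.37, adjusted p = 0.655). Of all genes 22.3% were called there. The 9 groups used to pick these genes include both 48 h groups. A 48 h difference like that of HEY1 is thus partly built into the choice and is no separate support. None of these 4 calls at 48 h held when the libraries above the gap were left out (log2 0.95 for VWF, 0.65, 0.92 and 0.28 for the others, edgeR adjusted p from 0.416 to 0.713). At 12 h ENSGALG00000025996 was lower in hypoxia like HEY1 (log2 -0.67, edgeR adjusted p = 0.0332), a call lost with those libraries left out (log2 -0.79). VWF had a value of 0.04 at 12 h (adjusted p = 0.911). At 36 h, where HEY1 was not called, ENSGALG00000025996 was called higher in hypoxia (log2 0.93, edgeR adjusted p = 0.00232). That call held with those libraries left out (log2 0.91). Of all genes 17.9% and 16.3% were called at 12 and 36 h.

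NOTCH1 was followed most closely by other genes: the cell cycle activator E2F1 (r = 0.97), the NF-kappa-B subunit NFKB2 (0.97), IGF-I, an insulin-like growth factor (0.96), MTX3, a protein of the mitochondrial outer membrane (0.96), and TGFB1, a transforming growth factor (0.94). E2F1 went from 2253 ± 480 CPM at 0 h to 498 ± 117 at 48 h of normoxia and 567 ± 181 in hypoxia. TGFB1 went from 701 ± 173 to 205 ± 48.9 and 280 ± 114 CPM. At 12 h 17.9% of all genes were called between oxygen levels. The genes close to NOTCH1 were picked over groups of both oxygen levels, so their oxygen differences are partly built into the choice. Of these 5 genes MTX3 differed between oxygen levels at 12 h (log2 -0.80, SE 0.23, edgeR adjusted p = 0.0117; 0.0915 with the libraries above the gap left out), and none was called at 24, 36 or 48 h. HEY1 and NOTCH1 had r = 0.85 with each other, which put NOTCH1 at rank 29 for HEY1 and HEY1 at rank 36 for NOTCH1.

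**Figure D5:**
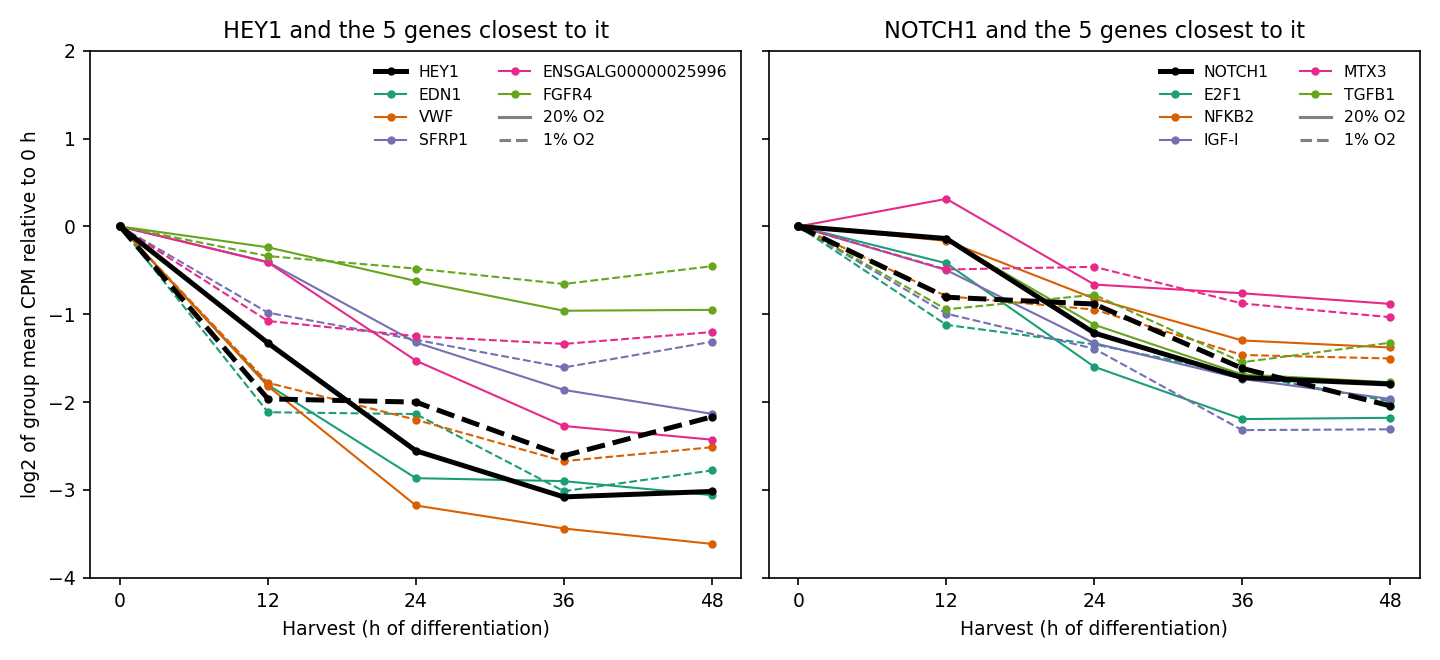
Log2 of the group mean CPM relative to normoxia 0 h against the harvest in h, for HEY1 (left) and NOTCH1 (right) in black with the 5 genes closest to each in colour, at 20% O2 (solid) and 1% O2 (dashed). The HEY1 means in hypoxia lie between 447 and 700 CPM from 12 h on, while the NOTCH1 means are at 179 and 213 CPM at 48 h.

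Markers of endothelial cells fell over the normoxia course, as HEY1 did, and were not called with it between oxygen levels at 12 h. VWF and EDN1 had been picked above for their likeness to HEY1 in these same data. Of 15 listed endothelial markers 5 were on the panel and 4 were tested, and all 4 fell from 0 to 48 h in normoxia: VWF (log2 -3.64), EDN1 (-3.20), ENG (-1.86) and CDH5 (-1.32). Their edgeR adjusted p-values were 5.21e-14, 1.22e-08, 0.000192 and 0.0212, in a comparison that called 40.6% of all genes. The summed level of the list was 825 to 1734 CPM over the 0 h libraries, 355 to 986 at 12 h of normoxia, 105 to 280 at 48 h of normoxia and 238 to 604 at 48 h of hypoxia. This sum weighs each gene by the yield of its primers, and VWF alone had a mean of 743 CPM at 0 h. Between oxygen levels 22.3% of all genes were called at 48 h and 18.5% at 24 h. In hypoxia at 48 h VWF and ENG (log2 1.27, edgeR adjusted p = 0.0135) were higher than in normoxia and EDN1 and CDH5 were not called. Both calls ended when the libraries above the gap were left out (edgeR adjusted p = 0.570 and 0.556). At 24 h VWF was called higher in hypoxia with and without those libraries (log2 0.98 and 1.13, edgeR adjusted p = 0.0132 and 0.0105). At 12 h, where HEY1 was lower in hypoxia, the values of the 4 lay between -0.53 and 0.27 and did not pass with edgeR or DESeq2. Without the libraries above the gap 1 normoxia library remained at 48 h. The log2 changes from 0 to 48 h in normoxia were then -3.53 for VWF, -1.75 for EDN1, -2.33 for ENG and 0.36 for CDH5. The calls of EDN1, ENG and CDH5 ended. In hypoxia the changes from 0 to 48 h were -2.57 for VWF, -2.62 for EDN1 and -1.45 for CDH5, and ENG was not called with all libraries. HEY1 is also known as a Notch target in endothelial cells, and the part of such cells in its values was not tested.

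Genes of the muscle lineage went in both directions. Of 7 tested myogenic factors MEF2C rose (log2 1.08) and MYF5 fell (-0.85) from 0 to 48 h in normoxia, and MYOD1 (-0.07), MYOG (-0.03), MYF6 (-1.21), MEF2A (0.17) and MEF2D (-0.13) did not pass. The median of the list was -0.07, against 0.01 over all tested genes, of which 40.6% were called. At 12 h, MEF2C and MEF2A were lower in hypoxia (log2 -0.76 and -0.75, edgeR adjusted p = 0.0384 and 0.0471). At 24 h MYF6 was higher (log2 2.02, edgeR adjusted p = 0.0303). Of all genes 17.9% and 18.5% were called between oxygen levels at 12 and 24 h. At 36 h none was called with edgeR or DESeq2 (1 had an unadjusted p under 0.05), and at 48 h the 7 values lay between -0.53 and 0.35 and did not pass with edgeR or DESeq2. Each of these 5 calls of the list was lost when the libraries above the gap were left out, with edgeR adjusted p-values of 0.269 for MEF2C and 0.169 for MYF5 over time and 0.248, 0.114 and 0.103 for MEF2C, MEF2A and MYF6 between oxygen levels.

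Of 5 tested satellite cell genes PAX3 (log2 -1.84), NCAM1 (-1.46) and CD34 (-1.46) fell from 0 to 48 h in normoxia. The integrin ITGA7 rose (2.32), and PAX7, the defining factor of the quiescent satellite cell, had -0.06 (edgeR adjusted p = 0.826). Of all genes 40.6% were called from 0 to 48 h in normoxia, and CD34 had 0 to 27 counts per library (median 5). At 12 h NCAM1 was higher and ITGA7 lower in hypoxia (log2 0.29 and -0.87, edgeR adjusted p = 0.0134 and 0.0111). PAX3 and NCAM1 were higher in hypoxia at 24, 36 and 48 h. For PAX3 the log2 differences were 1.12, 0.86 and 0.92 (edgeR adjusted p = 0.000231, 0.00623 and 0.00207). Between oxygen levels 17.9% of all genes were called at 12 h, and 18.5%, 16.3% and 22.3% at 24, 36 and 48 h. When the libraries above the gap were left out, PAX3 was called at 24 and 36 h (adjusted p = 0.00300 and 0.0467) and not at 48 h (log2 0.68, adjusted p = 0.653), NCAM1 and ITGA7 were called at no harvest between oxygen levels, and over time the calls of PAX3, NCAM1 and ITGA7 held and that of CD34 did not (adjusted p = 0.194). Of 5 tested smooth muscle and pericyte markers MYLK (log2 2.52) and CNN1 (2.16) rose from 0 to 48 h, and PDGFRB (0.26), ACTA2 (-0.09) and TAGLN (-0.09) did not pass. Their summed level lay between 10963 and 14717 CPM in every library, a sum in which changes of a single gene may not show. In hypoxia MYLK was called lower at 12, 24 and 36 h (log2 -1.67, -1.32 and -0.90, edgeR adjusted p from 6.20e-05 to 0.0327). TAGLN was lower at 36 and 48 h (-0.42 and -0.40, adjusted p = 8.73e-05 and 0.000101) and ACTA2 higher at 36 h (0.22, adjusted p = 0.0360). CNN1 and PDGFRB were not called between oxygen levels. With the libraries above the gap left out, the calls of MYLK at 12 and 24 h and TAGLN at 36 h held and the others ended.

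The counts of the other lists stand against the 40.6% of all genes called from 0 to 48 h in normoxia. There 6 of 10 contractile genes rose and 0 fell, led by LDB3 (log2 2.26), MYH1D (1.92) and ACTC1 (1.18). Of 6 cell cycle genes 4 fell, led by E2F1 (-2.18), RRM2 (-0.31) and PCNA (-0.21). Of 11 TGF-beta and BMP genes 3 rose and 4 fell, led by GDF8 (-3.41), TGFB1 (-1.77) and FST (-1.18). Of 7 fibroblast and matrix markers 2 rose and 2 fell, led by DPT (2.92), and of 5 adipocyte markers PPARG (0.76) and FABP4 (0.48) rose. With the libraries above the gap left out, 1 normoxia library remained at 48 h. Fewer genes of each of these lists were then called, as over all tested genes, so the 40.6% is no measure for that fit. Of the genes named here RRM2, PCNA, TGFB1 and FABP4 lost their calls (log2 -0.21, -0.04, -1.95 and 0.41). The 6 HIF pathway genes (log2 -0.19 to 0.13) and the 6 reference genes (-0.03 to 0.12) did not pass in that comparison with edgeR or DESeq2, and of 8 immune and blood markers 1 was on the panel and failed the filter. The hypoxia-induced repressor BHLHE40, picked from the 6 HIF pathway genes after its values were seen, was called higher in hypoxia at each harvest. Its log2 differences were 0.24 to 0.41 (edgeR adjusted p from 4.51e-06 to 0.0101). VEGFA was called higher at 24 h (log2 0.15, edgeR adjusted p = 0.0459) and HIF1A lower at 36 h (-0.20, adjusted p = 0.0414). The others of the list were not called at any harvest. Of all genes 17.9%, 18.5%, 16.3% and 22.3% were called at 12, 24, 36 and 48 h. When the libraries above the gap were left out BHLHE40 had 0.31, 0.32, 0.26 and 0.46 and was called at 24 h and not at 12, 36 or 48 h. The calls of VEGFA and HIF1A ended.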

How the data were processed

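The authors deposited a table of raw read counts from targeted RNA-seq, in which primers spanning exon boundaries amplify a fixed panel from cDNA, per the labels' protocols. It has 590 transcripts and 106 columns, 2 technical replicates of each of 53 libraries. Per the submitters' processing notes the genome build was galGal6. No aligner or read counter is named in what was used here. Coordinates are those of the deposited table.

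Blank cells (1160 in 21 columns, 0 of them in HEY1 or NOTCH1) were read as 0, and transcripts and technical replicates were summed, which gave 569 genes. Library totals ran from 171196 to 1448544 counts. Counts were fitted in R 4.3.3 with edgeR 4.0.16 (TMM, filterByExpr, quasi-likelihood F test, all 9 groups, 44 residual degrees of freedom). Of 569 genes 453 passed the filter, and a gene is called at an adjusted p under 0.05 (Benjamini-Hochberg, over these 453). The filter was run anew in each alternative fit that used it, and adjustment was over the genes of that fit. Without the libraries above the gap 466 genes were tested. Standard errors were obtained by dividing the log2 change by the root of its F statistic. The procedure was tested on simulated data. Adjusted p-values come from edgeR except where DESeq2 (1.42.0) is named.

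The genes, the 18 gene lists and the tests were chosen with earlier results of these data known. Named are HEY1, NOTCH1, every other panel gene of the Notch lists, the 5 genes closest to each of the pair by Pearson's r over the 9 groups, every tested myogenic, satellite cell, endothelial and smooth muscle marker, and up to 3 called genes of each other list. BHLHE40, VEGFA and HIF1A were named after their values were seen. The left-out libraries above the gap, the covariate and the count ratio were also chosen after seeing the data. The other alternatives were DESeq2, other scalings, no filter, single technical replicates, the replicate block, only the groups compared, and leaving out replicates or 1 technical column (of normoxia 0 h replicate 1) in which all 590 transcripts were above 0.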

Additional observations from a re-analysis of the deposited data

Results flagged for a closer look

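In 4 of 54 groups of libraries tested, a library stood apart from the others of its group by Dixon's criterion, where chance alone gives about 5%. NOTCH1 was at 507 CPM in hypoxia 36 h replicate 4, and the other 5 libraries lay between 142 and 222 CPM. DLK1 was at 152 CPM in hypoxia 12 h replicate 1, against 41.1 to 63.1 CPM in the others. EP300 was at 5466 CPM in normoxia 36 h replicate 4, against 3936 to 4360 CPM. The log2 ratio of the HEY1 to the NOTCH1 count was 1.57 in normoxia 48 h replicate 6, against 0.24 to 0.71 in the others, and this library is the only one of its group on the lower side of the gap.

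The oxygen difference of HEY1 was not the same at all harvests. The edgeR test for any difference among 12, 24, 36 and 48 h gave an adjusted p of 0.000860, with values of -0.64, 0.56, 0.45 and 0.85 on the log2 scale, of which 12 and 48 h passed singly. Without the 17 libraries above the gap its adjusted p was 0.244.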

How the results depend on the processing

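For HEY1, the falls from 0 to 48 h in both oxygen levels, from 0 to 12 h in both and from 12 to 24 h in normoxia kept their direction and call under each of 18 alternatives (log2 -3.16 to -2.73 for normoxia from 0 to 48 h), and so did the fall of NOTCH1 from 0 to 48 h in hypoxia (-2.41 to -1.64). The within-group correlation of the pair lay between 0.69 and 0.80 over its 8 alternatives. NOTCH1 had a median of 228 counts per library, and the interval of its oxygen difference at 12 h ran from -1.37 to 0.04. The alternatives that leave out the libraries above the gap or add the technical factor were chosen after seeing the data. The causes of the changes below were not tested, except that leaving out libraries leaves fewer samples.

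Without the libraries above the gap, calls of HEY1 ended at 12 h (-0.70) and 48 h (0.44), for the difference between these (1.14), for any difference between harvests (adjusted p = 0.244) and from 24 to 36 h of hypoxia (-0.63). Calls of NOTCH1 ended for normoxia from 0 to 48 h (-2.37) and 12 to 24 h (-1.12), and its uncalled values turned at 48 h (0.21) and from 0 to 12 h of normoxia (0.12). NOTCH2 and DLK1 turned from 0 to 48 h in normoxia (0.029 and -0.28).

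The technical factor is the component score given above, which may also hold effects of time and oxygen. With it as a covariate, the HEY1 call at 12 h was lost (-0.18). Calls were gained at 24 h (0.35), at 36 h (0.43), from 24 to 36 h of normoxia (-0.46) and from 36 to 48 h of hypoxia (0.37). From 36 to 48 h of normoxia HEY1 had -0.049. NOTCH1 turned at 12 h (0.12), at 24 h (-0.18) and in the difference of 48 and 12 h (-0.37), and its normoxia step from 12 to 24 h was not called (-0.26).

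Technical replicate 1 alone ended the HEY1 calls at 12 h (-0.62) and from 24 to 36 h of hypoxia (-0.52) and turned its normoxia step from 36 to 48 h (-0.29). It turned NOTCH1 at 36 h (-0.31), at 48 h (0.092) and from 0 to 12 h of normoxia (0.21), and DLK1 from 0 to 48 h in hypoxia (-0.42). Technical replicate 2 alone ended the HEY1 calls at 48 h (0.68) and from 24 to 36 h of hypoxia (-0.69), turned its hypoxia step from 12 to 24 h (0.16), ended the NOTCH1 call from 12 to 24 h of normoxia (-0.99), gave a call from 0 to 12 h of hypoxia (-1.27), and turned its steps from 36 to 48 h of normoxia (0.37) and from 12 to 24 h of hypoxia (0.29).

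Scaling by reference genes ended the HEY1 calls at 12 h (-0.74) and from 24 to 36 h of hypoxia (-0.66), and moved the median of all genes from 12 to 24 h of normoxia to -0.16. The latter HEY1 step was also lost with library totals (-0.61), with no filter (-0.62) and with only the groups compared (-0.64). At 24 h HEY1 was called by DESeq2 (0.57) and with its size factors in edgeR (0.57). With only the groups compared, NOTCH1 was called at 12 h (-0.67) and from 0 to 12 h of hypoxia (-0.83).

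Leaving out the libraries of each replicate number in turn, HEY1 ranged from -0.77 to -0.60 at 12 h, 0.40 to 0.65 at 24 h, 0.19 to 0.68 at 36 h, -0.066 to 0.24 from 36 to 48 h of normoxia, and in hypoxia -0.20 to 0.12 from 12 to 24 h, -0.76 to -0.51 from 24 to 36 h and 0.26 to 0.65 from 36 to 48 h. NOTCH1 ranged from -0.43 to 0.40 at 36 h, in normoxia -0.43 to 0.10 from 0 to 12 h, -1.38 to -0.81 from 12 to 24 h and -0.24 to 0.16 from 36 to 48 h, and in hypoxia -0.96 to -0.72 from 0 to 12 h and -0.31 to 0.27 from 12 to 24 h. DLK1 ranged from -0.093 to 0.33 from 0 to 48 h in hypoxia.

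Whether the replicate numbers pair the samples was not settled. The correlation of same-numbered libraries was over 0.1 in 3, 3, 2 and 4 of 6 pairs at 12, 24, 36 and 48 h. Libraries with different numbers were not compared, so these counts have no baseline. With the replicate block HEY1 differed by -0.63 at 12 h and 0.84 at 48 h, and the block changed no call of HEY1 or NOTCH1; NOTCH2 was called with it from 0 to 48 h of normoxia (-0.18), and NOTCH2 and EP300 over all normoxia harvests (adjusted p = 0.0336 and 0.0367). It raised the genes called from 36 to 48 h of normoxia from 5 to 15. Over all alternatives the genes called ranged from 24 to 131 at 12 h (81 in the fit reported), 42 to 113 at 24 h (84), 33 to 118 at 36 h (74), 22 to 140 at 48 h (101), 0 to 75 for the difference of 48 and 12 h (42; the 0 is from edgeR without the libraries above the gap, where 38 genes had an unadjusted p under 0.05), 68 to 207 from 0 to 48 h of normoxia (184), 39 to 212 from 12 to 24 h of normoxia (175), 15 to 63 from 24 to 36 h of hypoxia (41) and 13 to 70 for any difference between harvests (48). By Spearman's rho in place of Pearson's r, EDN1 and FGFR4 ranked 2, VWF and ENSGALG00000025996 11 and SFRP1 16 for HEY1. For NOTCH1, E2F1 ranked 2.5, IGF-I 5.5, MTX3 10, TGFB1 13.5 and NFKB2 16.5.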

Other observations

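The higher HEY1 to NOTCH1 count ratio in hypoxia than in normoxia at 48 h was present in each technical replicate taken alone. The difference between oxygen levels in the mean log2 ratio was 0.91 in technical replicate 1 and 1.41 in technical replicate 2, against 1.12 in the sums. The technical replicates are parts of the same libraries on which the ratio was chosen, so they are no separate support. Without the libraries above the gap the 48 h difference in the sums was 0.22, with 1 normoxia library left. The fall of the ratio from 0 to 12 h of normoxia was -1.42 and -1.03 in the replicates. At 36 h the oxygen difference was 0.61 in technical replicate 1 and 0.04 in technical replicate 2, next to 0.32 in the sums, so that its size differed between replicates of the same libraries.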
